A study of Homo sapiens with 6 samples.

Results

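The EGF family is a set of growth factor genes, and its products act through the ERBB receptor tyrosine kinases. The 10 genes described here were taken by name from the entries on primary chromosomes, out of 41497 named entries in each file, and each name had 1 entry. They were the ligand genes EGF, AREG, EREG, HBEGF, TGFA, BTC and NRG1 and the receptor genes EGFR, ERBB2 and ERBB3. RNA was measured by poly(A) RNA-seq in HK2 (HK-2) cells, a wild-type (WT) immortalised line of human kidney proximal tubular epithelial cells. There were 3 libraries of cells labelled as control and 3 libraries of cells given TGF-β1 for 24 hours, and the labels give no dose for these libraries. All libraries came from 1 cell line, and whether the replicates were separate cultures is not given in the sources used here, so the p values measure the spread between these libraries, which may be technical. The labels list medium with serum (FBS), whereas the methods describe TGF-β treatment in serum-free medium, and whether the control libraries were kept without serum is not given in the sources used here.

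Ligands of this family are made as membrane proteins, and cell surface proteases cut them to release the soluble factor. EGF, AREG (amphiregulin), EREG (epiregulin), HBEGF, TGFA and BTC (betacellulin) bind EGFR, some of them also bind ERBB4, and NRG1 (neuregulin) binds ERBB3 and ERBB4. Binding pairs the receptors and switches on their kinases, from which signals run through RAS and ERK and through PI3K. ERBB2 has no known ligand of its own and acts as a partner, and ERBB3 has little kinase activity and relies on its partner. In the kidney, EGF is made mainly by the distal nephron, EGFR is present along the tubule, and the pathway is known for its part in tubular repair and in fibrosis.

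After TGF-β1, most of the EGFR ligands among the 10 genes were lower, whereas HBEGF and EGF were not called and the groups of each overlapped. AREG fell to 18.3% and BTC to 17.2% of control, TGFA to 31.7% and EREG to 47.0%, by the fitted fold changes. EGFR and NRG1 fell by much less, to 80.4% and 84.3%. The 10 genes were chosen with earlier results of these data known. The shares of all genes given beside their counts are a description, with no test. All 10 genes passed the count filter. Of these, 7 were called lower and 0 were called higher at an adjusted p under 0.05, where 22.1% of the 14860 genes tested were called lower and 22.2% were called higher. One of the 7, ERBB3, passed the filter only through its control libraries. The number called lower and at least 2-fold was 5, against 5.38% of all genes tested, and 0 were called higher and at least 2-fold, against 3.68%. The CPM (counts scaled to library size) of the 2 groups did not overlap for 7 members, all lower after TGF-β1, where 55.6% of all genes tested had groups that did not overlap, 27.7% lower and 27.9% higher. The median log2 fold change was -0.70 over the 10 members and 0.01 over all genes tested. The plot of fold changes shows the size of each change beside the range of all genes.

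**Figure D1:**
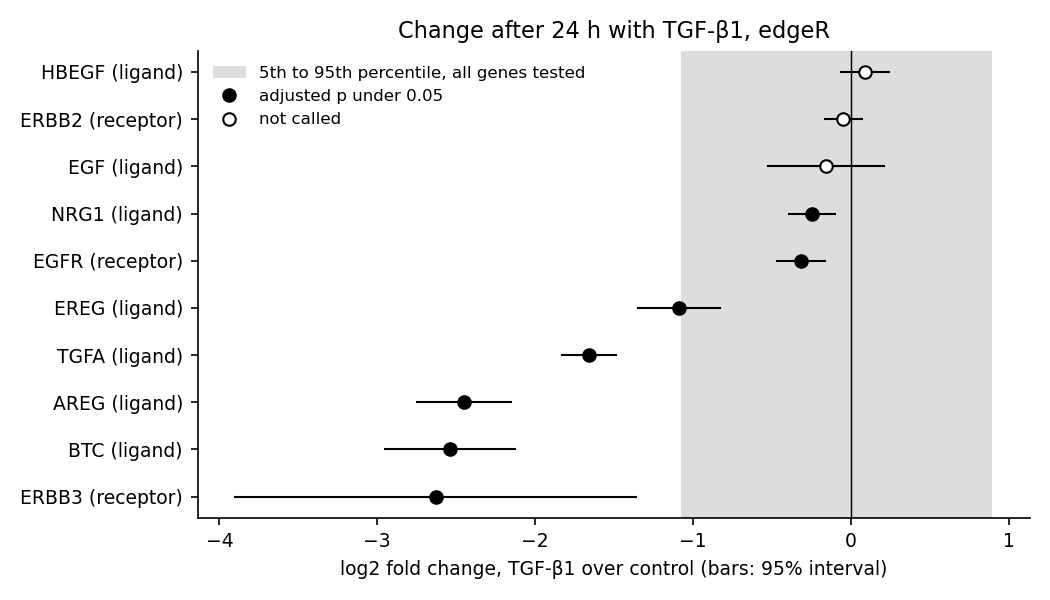
Log2 fold change of each member after TGF-β1 (x axis, edgeR estimate with its 95% interval), filled where the adjusted p was under 0.05, with the 5th to 95th percentile of all genes tested in grey. AREG, BTC, TGFA and ERBB3 lie wholly below the grey range, EREG at its edge at -1.09, and HBEGF, ERBB2 and EGF have intervals that include 0.

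Library totals ranged from 21938622 to 26906067 counts. TGF-β1 replicate 1 stood apart from the other treated libraries, with a chi-square per degree of freedom over genes of 20.4 and 18.9 against them, where they gave 4.72 between themselves and control pairs gave 4.69 to 6.49. Without this library the log2 fold changes of the 3 members that were not called were -0.08 for EGF, 0.05 for HBEGF and -0.08 for ERBB2, and none of them was called. Values without it are given below for NRG1, EGFR and ERBB3. As a check of the labels, the well-known TGF-β targets SMAD7, SKIL, CCN2, COL1A1 and JUNB were each called higher, with log2 fold changes of 1.64, 1.08, 1.56, 3.30 and 3.08. These targets were chosen with earlier results of these data known, and 22.2% of all genes tested were called higher. Of 11 proximal tubule markers, 5 passed the filter, LRP2 and SLC22A6 had no count in any library, and the summed level of the list was 309 to 343 CPM in control and 193 to 225 CPM after TGF-β1. That sum was mostly PAX8 and GGT1, which were called lower, at -0.73 and -0.58 on the log2 scale, whereas the rarer CUBN and AQP1 were called higher, at 0.82 and 2.10. The sum was 0.310 to 0.695 CPM in control and 0.124 to 0.192 CPM after TGF-β1 for 6 markers of the distal nephron, with UMOD, CALB1 and SCNN1G at 0. For 4 fibroblast markers it was 58.8 to 68.4 CPM and 56.6 to 57.7 CPM. Nearly all of this was LUM, called lower at -0.28, and PDGFRB was called higher at 3.38, from a mean of 0.551 to 5.79 CPM. For 4 leukocyte markers the sum was 92.0 to 101.9 CPM and 60.9 to 84.5 CPM, with CD3E and MS4A1 at 0. Nearly all of the leukocyte sum was CD68. For 4 endothelial markers it was 0.858 to 1.595 CPM in control and 0 to 0.0384 CPM after TGF-β1. Most of the control sum was CDH5, with 29, 16 and 17 counts in control and 0 in each treated library. PECAM1 and VWF had 14 and 4 counts in control and 0 after TGF-β1, and KDR had 0 and 1. The part of these shifts in the results below was not tested. In bulk RNA, fewer cells of a kind and less RNA per cell cannot be told apart.

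Levels of different genes were compared in the deposited TPM, which are scaled by gene length. In control cells HBEGF had the highest mean level, 145 ± 10.4 TPM (SD, n = 3), followed by EREG at 138 ± 26.3 TPM and EGFR at 119 ± 5.18 TPM. The libraries of HBEGF and EREG overlapped in this order, and so did those of EREG and EGFR. AREG at 41.6 ± 6.15 TPM and ERBB2 at 41.3 ± 0.988 TPM also overlapped. NRG1 at 31.1 ± 0.259 TPM, TGFA at 19.6 ± 0.761 TPM, BTC at 7.10 ± 0.614 TPM, EGF at 2.45 ± 0.435 TPM and ERBB3 at 0.490 ± 0.138 TPM followed without overlap between neighbors. After TGF-β1 the order was HBEGF at 142 ± 1.58 TPM, EGFR at 88.5 ± 10.5 TPM, EREG at 59.7 ± 2.49 TPM, ERBB2 at 36.8 ± 0.656 TPM, NRG1 at 24.2 ± 2.69 TPM, AREG at 6.96 ± 0.632 TPM, TGFA at 5.70 ± 0.292 TPM, EGF at 2.02 ± 0.352 TPM, BTC at 1.13 ± 0.337 TPM and ERBB3 at 0.0696 ± 0.0608 TPM. No neighbors in this second order overlapped. AREG moved from rank 4 to rank 6, and BTC moved from rank 8 to rank 9, below EGF. The length of NRG1 in the files is 19608 bases, the union of its many exons, and its TPM are scaled by that length.

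**Figure D2:**
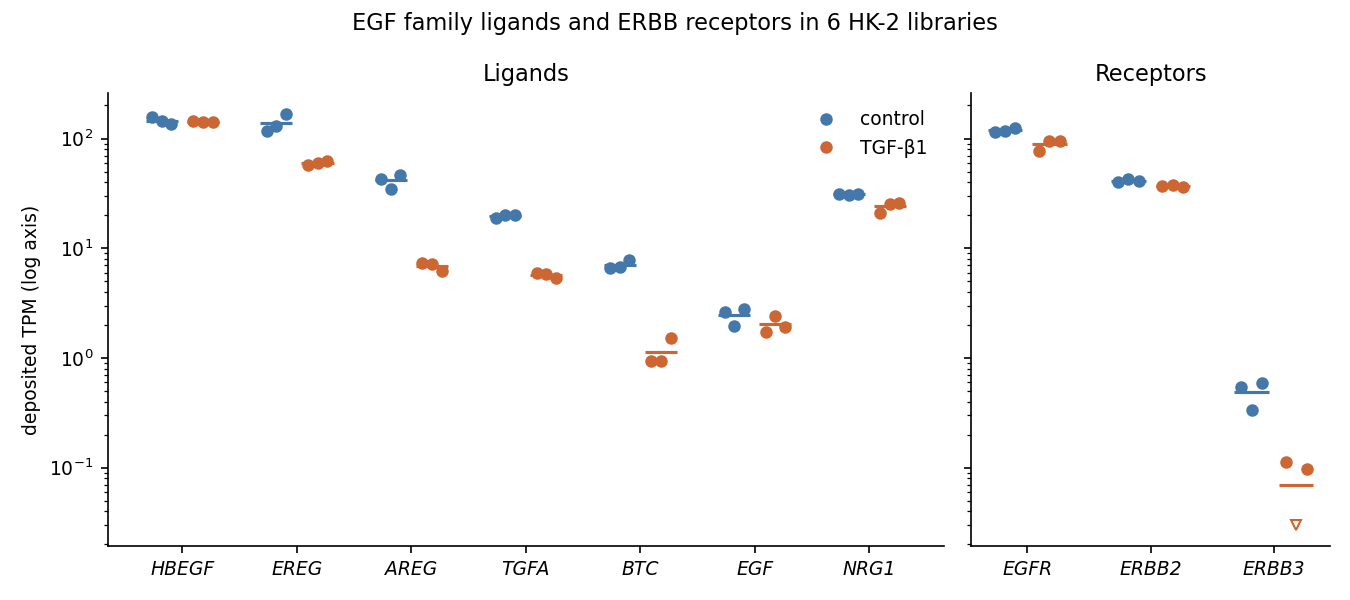
Deposited TPM (y axis, log scale) of each ligand and receptor in the 3 control and 3 TGF-β1 libraries, with a bar at each group mean. EREG, AREG, TGFA and BTC drop between groups while HBEGF stays near 142 to 145 TPM, and the open triangle marks the TGF-β1 library in which ERBB3 had a count of 0.

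The ligands that fell most were described first by library, in CPM scaled by the trimmed mean of M values (TMM). AREG (gene-AREG, GRCh38 chromosome 4, 74445136 to 74455005) encodes amphiregulin, a ligand that is cut from the membrane by ADAM17. It had 16.2, 13.0 and 17.1 CPM in control replicates 1 to 3 and 3.07, 2.85 and 2.48 CPM after TGF-β1. Each treated library was below each control library. The fitted log2 difference was -2.45 ± 0.13 (SE, edgeR adjusted p 1.2e-07). BTC (gene-BTC, chromosome 4, 74744759 to 74794718), which encodes betacellulin, had 8.73, 8.79 and 9.84 CPM in control and 1.34, 1.28 and 2.10 CPM after TGF-β1. The groups were again far apart, and TGF-β1 replicate 3 was the highest of its group. The log2 fold change of BTC was -2.54 ± 0.19 (edgeR adjusted p 1.2e-06).

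TGFA (gene-TGFA, chromosome 2, 70447284 to 70553826) encodes transforming growth factor alpha, which despite its name is an EGFR ligand and no relative of TGF-β. It had 25.1, 26.5 and 25.8 CPM in control and 8.72, 8.15 and 7.59 CPM after TGF-β1, a log2 fold change of -1.66 ± 0.08 (edgeR adjusted p 3.3e-08). Libraries within each group were close to each other and the groups did not overlap. EREG (gene-EREG, chromosome 4, 74365145 to 74388749) encodes epiregulin and was the most abundant of the ligands that fell. It had 164, 182 and 227 CPM in control and 89.1, 87.6 and 92.8 CPM after TGF-β1. Its control libraries were more spread than its treated ones, and the groups did not overlap. The log2 fold change of EREG was -1.09 ± 0.11 (edgeR adjusted p 1.1e-04), and it was -0.95 without control replicate 3, the highest library.

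The sequence before the start of these 4 genes is shown because they fell together, beside HBEGF and EGF, which were not called. Promoters were those of RefSeq on GRCh38.p14, cut to the 250 bases before the start, and 8 of the 10 members were matched by symbol, of which 6 are shown. Those of NRG1 and ERBB3 were not used here. Capitals mark matches, on either strand, to TGANTCA (the AP-1 site), TGACGTCA (the cAMP response element, CRE) or CAGAC (a short SMAD element). The windows are chr4:74444886-74445135 (plus strand) for AREG, chr4:74364895-74365144 (plus) for EREG, chr4:74794524-74794773 (minus) for BTC, chr2:70553827-70554076 (minus) for TGFA, chr5:140346604-140346853 (minus) for HBEGF and chr4:109912633-109912882 (plus) for EGF.
AREG: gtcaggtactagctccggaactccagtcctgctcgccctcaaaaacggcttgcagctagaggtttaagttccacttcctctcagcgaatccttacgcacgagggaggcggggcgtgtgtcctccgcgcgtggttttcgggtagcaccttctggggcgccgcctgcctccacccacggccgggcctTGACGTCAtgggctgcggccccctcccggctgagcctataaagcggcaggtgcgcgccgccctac
EREG: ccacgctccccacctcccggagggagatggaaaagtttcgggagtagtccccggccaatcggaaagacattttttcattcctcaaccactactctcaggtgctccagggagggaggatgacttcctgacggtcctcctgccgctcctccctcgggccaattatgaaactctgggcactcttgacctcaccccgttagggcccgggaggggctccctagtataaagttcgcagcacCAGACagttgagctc
BTC: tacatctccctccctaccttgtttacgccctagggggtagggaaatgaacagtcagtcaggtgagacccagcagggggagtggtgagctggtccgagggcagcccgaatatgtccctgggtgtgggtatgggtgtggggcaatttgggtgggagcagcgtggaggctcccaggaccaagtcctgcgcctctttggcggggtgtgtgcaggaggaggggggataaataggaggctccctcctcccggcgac
TGFA: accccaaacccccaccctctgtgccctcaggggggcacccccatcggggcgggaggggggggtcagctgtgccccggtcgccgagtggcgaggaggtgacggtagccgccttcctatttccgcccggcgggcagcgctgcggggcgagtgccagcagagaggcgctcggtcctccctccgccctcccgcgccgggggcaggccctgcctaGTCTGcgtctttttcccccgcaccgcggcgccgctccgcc
HBEGF: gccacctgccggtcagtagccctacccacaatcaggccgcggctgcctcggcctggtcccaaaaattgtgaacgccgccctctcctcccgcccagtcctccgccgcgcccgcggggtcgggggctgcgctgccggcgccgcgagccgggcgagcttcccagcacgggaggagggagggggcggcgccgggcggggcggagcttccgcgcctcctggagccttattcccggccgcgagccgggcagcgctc
EGF: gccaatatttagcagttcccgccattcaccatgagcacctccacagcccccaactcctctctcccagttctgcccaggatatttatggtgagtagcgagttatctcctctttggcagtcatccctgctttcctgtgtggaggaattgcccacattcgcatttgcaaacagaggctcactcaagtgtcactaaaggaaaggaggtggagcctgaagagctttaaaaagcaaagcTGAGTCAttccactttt
The AREG window held 1 CRE, with its first base 65 bases before the start. A CRE was present in 1.65% of the 35116 promoters of the table. EREG and TGFA each held 1 CAGAC on one strand or the other, which 38.0% of all promoters did. The EGF window held 1 AP-1 match, 17 bases before the start, and so did 6.57% of all promoters. BTC and HBEGF held none of these motifs in this window. The listed start of BTC in the table was 195 bases downstream of its start in the files. For BTC, 195 of the 250 bases therefore lie within the gene as counted and not before it. GC content ranged from 48.8% in EGF to 76.4% in HBEGF, with 65.2% in AREG, 58.0% in EREG, 62.0% in BTC and 75.6% in TGFA. A match to letters is a description and no measure of binding.

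HBEGF (gene-HBEGF, chromosome 5, 140332843 to 140346603), which encodes heparin-binding EGF-like growth factor, had 112, 102 and 93.9 CPM in control and 114, 107 and 107 CPM after TGF-β1. The groups overlapped. Its log2 fold change was 0.09 ± 0.07 (edgeR adjusted p 0.333), with a 95% interval from -0.07 to 0.24, and with total counts as the only scaling it was -0.02. A rise beyond 1.18-fold or a fall below 0.956-fold lay outside that interval. EGF (gene-EGF, chromosome 4, 109912883 to 110013766), the founding member of the family, was the ligand with the fewest counts per length in control. It had 5.49, 4.05 and 5.62 CPM in control and 3.99, 5.29 and 4.30 CPM after TGF-β1, and the groups overlapped. The log2 fold change of EGF was -0.16 ± 0.17 (edgeR adjusted p 0.475), with a 95% interval from -0.53 to 0.21, so that a change of moderate size was not detectable at this depth.

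NRG1 (gene-NRG1, chromosome 8, 31639245 to 32774046), the neuregulin of the list, had 187, 182 and 181 CPM in control and 139, 159 and 165 CPM after TGF-β1. All treated libraries were lower, with TGF-β1 replicate 1 the lowest. The log2 fold change was -0.25 ± 0.07 (edgeR adjusted p 0.0106), and it was -0.19 without TGF-β1 replicate 1 (edgeR adjusted p 0.00102). Its receptors ERBB3 and ERBB4 were at or near the limit of detection, as given below.

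Among the receptors, EGFR was the most abundant, ERBB2 was intermediate and ERBB3 was rare. EGFR (gene-EGFR, chromosome 7, 55019017 to 55211628) encodes the receptor for EGF. It had 404, 402 and 422 CPM in control and 294, 344 and 349 CPM after TGF-β1. The groups did not overlap, and TGF-β1 replicate 1 lay below the other treated libraries, as it did for NRG1. The log2 fold change of EGFR was -0.32 ± 0.07 (edgeR adjusted p 0.00360), and -0.25 without that library (edgeR adjusted p 1.0e-04). ERBB2 (gene-ERBB2, chromosome 17, 39688094 to 39728660) encodes the ligandless partner receptor. It had 78.8, 81.4 and 77.6 CPM in control and 78.8, 76.5 and 74.8 CPM after TGF-β1, and the groups overlapped. Its log2 fold change was -0.05 ± 0.05 (edgeR adjusted p 0.496), with a 95% interval from -0.16 to 0.07. With total counts as the only scaling ERBB2 was called, at -0.16 (edgeR adjusted p 0.0360), and in TPM its groups did not overlap. An exon of MIEN1 on the opposite strand shares 151 bases with ERBB2, and whether counting used strand is not given in the sources used here.

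ERBB3 (gene-ERBB3, chromosome 12, 56080108 to 56103505) encodes the neuregulin receptor with little kinase activity. It had 23, 15 and 25 raw counts in control and 6, 0 and 4 after TGF-β1. The 63 and 10 summed counts gave a read ratio of 0.146, with a 95% exact binomial interval from 0.0668 to 0.287, which covers counting error only. The log2 fold change was -2.63 ± 0.57 (edgeR adjusted p 0.00376), and over the fits that left out 1 library it ranged from -3.26, without TGF-β1 replicate 1, to -2.05, without TGF-β1 replicate 2, the library with no count. ERBB3 was at or above the cutoff of the count filter, 0.435 CPM, in 3 control libraries and 0 treated ones, so it passed the filter only through the group in which it was high and its call is not independent of that filter. The other 9 members were above the cutoff in all libraries. The noncoding gene LOC105369782 on the opposite strand shares 948 exon bases with ERBB3 and had 7 counts in all.

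Other genes of the family were examined as a list of 5, none of which passed the filter. ERBB4, the remaining receptor, and NRG3 had 0 counts in all 6 libraries, which allows up to 0.0442 CPM over the control group and 0.0406 CPM over the TGF-β1 group. NRG2 had 4 counts in each group. NRG4 had 10 counts in control and 19 after TGF-β1, which is 1.75 times the control share of reads (exact 95% bounds 0.773 and 4.21). Its 3 treated libraries were all above control in CPM, for a two-sided exact permutation p of 0.1, the smallest that 3 libraries against 3 can give. EPGN, which encodes epigen, another EGFR ligand, had 7, 7 and 9 counts in control and 4, 5 and 4 after TGF-β1. The treated share of EPGN reads was 0.520 times that of control (exact bounds 0.242 and 1.07), and its 3 treated libraries were all below control, with the same exact permutation p of 0.1.

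The shares and ratios of genes within each library do not depend on scaling between libraries, whereas the summed TPM of the EGFR ligands does. The summed TPM of HBEGF, EREG, AREG, TGFA, BTC and EGF was 354 ± 22.7 in control and 217 ± 0.923 after TGF-β1 (SD, n = 3), and these levels are a description with no test. HBEGF made up 41.2 ± 5.07% of this sum in control and 65.3 ± 0.856% after TGF-β1. The share of EREG was 38.9 ± 5.09% and 27.5 ± 1.09%, and that of AREG was 11.7 ± 1.24% and 3.20 ± 0.294%. The shares of TGFA were 5.56 ± 0.351% and 2.62 ± 0.137%, and those of BTC were 2.00 ± 0.0546% and 0.520 ± 0.155%. EGF held 0.690 ± 0.0990% and 0.931 ± 0.158%. The ratio of HBEGF to EREG in TPM ranged from 0.809 to 1.34 in control and from 2.25 to 2.50 after TGF-β1. The ratio of AREG to EREG, genes whose starts lie close together, ranged from 0.266 to 0.370 and from 0.1001 to 0.129, so AREG was lower relative to EREG in each treated library. The ratio of EGFR to ERBB2 ranged from 2.76 to 3.04 in control and from 2.08 to 2.61 after TGF-β1.

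**Figure D3:**
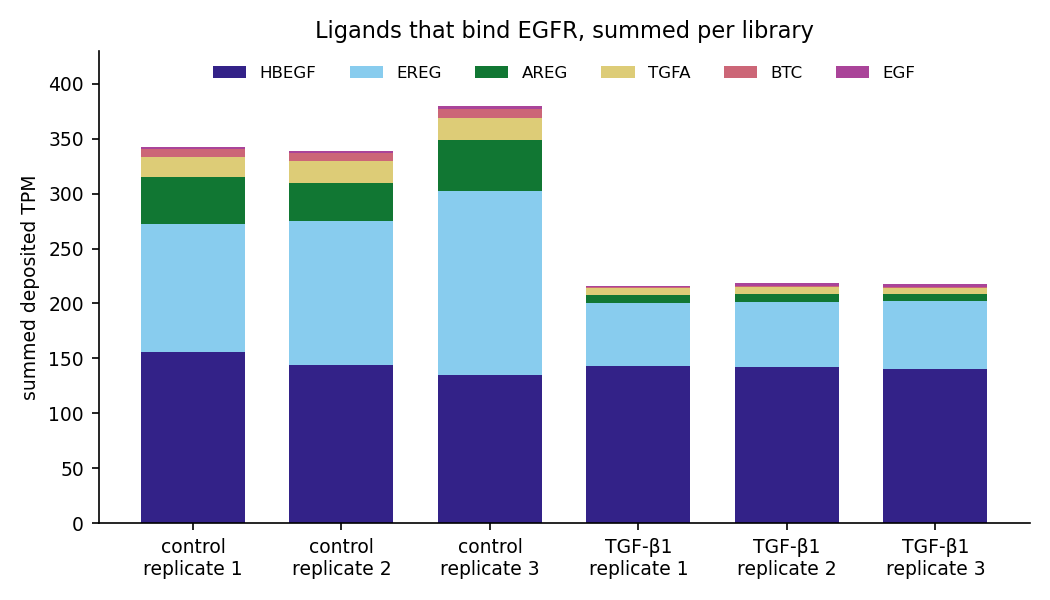
Summed deposited TPM (y axis) of the 6 ligands that bind EGFR in each library, stacked by gene. The HBEGF part is of similar height in all 6 libraries, while the sum goes from 339 to 380 TPM in control to 216 to 218 TPM after TGF-β1 through lower EREG, AREG, TGFA and BTC.

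Several ligand genes are neighbors on chromosome 4. EPGN, EREG and AREG lie in this order within 147 kb on the plus strand, and BTC lies 290 kb beyond AREG on the minus strand. EGF lies on the same chromosome 35.1 Mb further and was not called. The 3 members in this cluster fell by 1.09, 2.45 and 2.54 on the log2 scale, in the order EREG, AREG and BTC, so the genes of the cluster fell by different amounts. Within 500 kb of the ends of the cluster, a window chosen after the values were seen, 7 other genes were tested, of which 5 were called lower, 0 higher and 2 were not called, beside 22.1% of all genes tested called lower. CXCL2, CXCL3 and CXCL5, which encode neutrophil-attracting chemokines, had log2 fold changes of -1.63, -1.22 and -2.14, and CXCL6 had -0.87. MTHFD2L, a mitochondrial folate enzyme gene between CXCL2 and EPGN, had 0.01 ± 0.10 and was not called. The noncoding gene LOC105377276, which overlaps the position of EPGN, had -1.25.

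**Figure D4:**
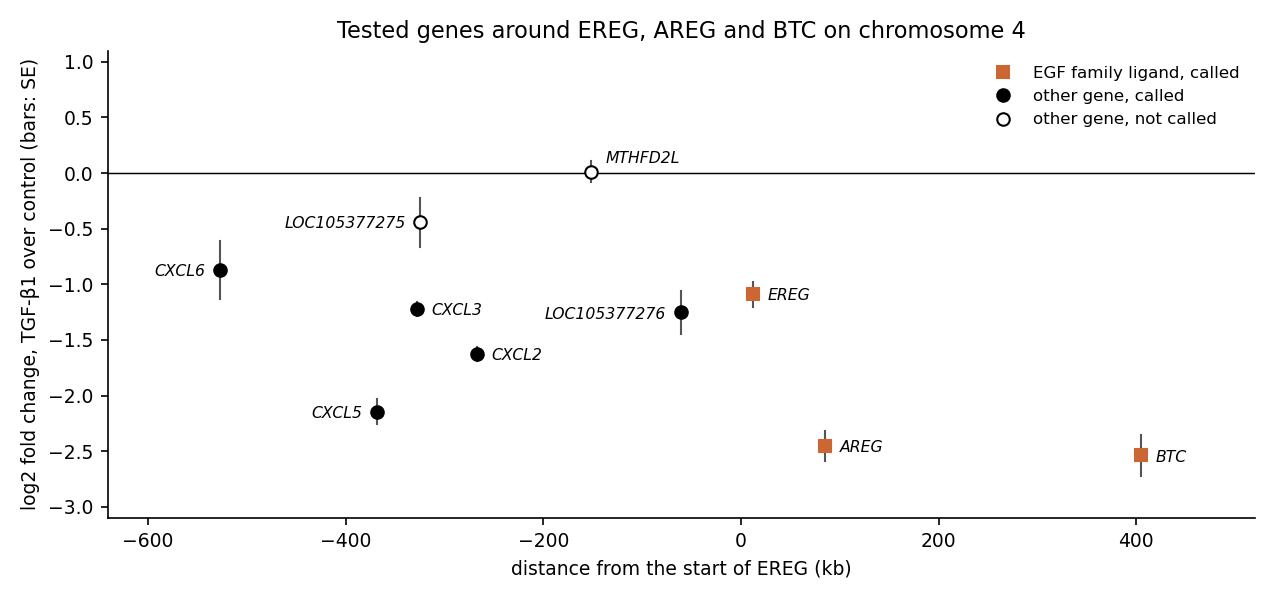
Log2 fold change (y axis, edgeR with SE) of the 10 tested genes around the ligand cluster on chromosome 4, by distance of each gene's middle from the start of EREG in kb (x axis). The 3 ligands (squares) and 5 of the 7 other genes lie below 0 and were called, whereas MTHFD2L lies at 0.01.

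The machinery that releases the ligands was followed in a list of 9 genes, of which 8 were called, 5 higher and 3 lower, beside 44.3% of all genes called in either direction. The list had a median log2 fold change of 0.32. This list and those below were chosen with earlier results of these data known, so the shares beside them are no test. ADAM19, which encodes a protease that can cut neuregulin, rose by 2.20 ± 0.06 (SE), from 53.5 ± 1.66 to 246 ± 13.5 CPM (SD, n = 3). ADAM12, whose product can cut HBEGF, rose by 1.21 ± 0.06, from 31.5 ± 0.516 to 73.0 ± 3.46 CPM. ADAM9 had the largest fall, -0.39 ± 0.10. ADAM17, the chief protease for AREG, EREG, TGFA and HBEGF, was named after its values were seen. Its log2 fold change was -0.19 ± 0.08 (edgeR adjusted p 0.0904), which was not a call. With total counts as the only scaling all 9 genes of the list, ADAM17 included, were called, 5 higher and 4 lower. DESeq2 called 5 higher and 2 lower. The levels of ADAM17 were 24.8 ± 0.367 CPM in control and 21.8 ± 2.61 CPM after TGF-β1. ADAM10, which releases EGF and BTC, had 287 ± 12.5 CPM in control and 222 ± 17.97 CPM after TGF-β1 and was called, at -0.37 ± 0.07 (edgeR adjusted p 9.9e-04). The iRhom genes, whose products carry ADAM17 to the surface, moved apart, with RHBDF2 at 0.66 and RHBDF1 at -0.25 (edgeR adjusted p 0.0187), both called. FRMD8, whose product holds iRhoms at the surface, rose by 0.66. ADAM10, RHBDF1, RHBDF2 and FRMD8 were also chosen after their values were seen.

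Of 12 genes for adaptors that bind activated receptors, 4 were called, 1 higher and 3 lower, beside 44.3% of all genes called, with a median of -0.02. SHC1 rose by 0.66 ± 0.05, from 134 ± 2.34 to 213 ± 8.20 CPM, and EPS8 had the largest fall, -0.82 ± 0.06. The 8 that were not called lay between -0.06 and 0.09. Among 11 genes for proteins that dampen the receptors, 10 were tested, 3 were called higher and 1 lower, beside 44.3% of all genes called, and the median was 0.08. SH3KBP1, an adaptor for receptor uptake, rose by 1.62 ± 0.06, from 87.9 ± 0.574 to 269 ± 17.1 CPM. LRIG3, a membrane protein of the same family as LRIG1, rose by 1.53 ± 0.06, from 47.7 ± 0.198 to 137 ± 8.92 CPM. Its effect on the receptors was not measured here. LRIG1 had 50 counts in control and 54 after TGF-β1 and was not called, at 0.11. ERRFI1, a direct inhibitor of the EGFR kinase that is itself induced by EGFR signals, had 165 ± 2.15 CPM in control and 83.4 ± 4.75 CPM after TGF-β1, a log2 fold change of -0.98 ± 0.06. With total counts as the only scaling 3 genes of this list were called lower, and 2 were called lower without TGF-β1 replicate 1 or without TGF-β1 replicate 2.

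Genes commonly read as output of ERK, the kinase below these receptors, did not move as 1 group. Of 10 genes 9 were tested, 5 were called higher and 1 lower, beside 22.2% and 22.1% of all genes, and the median was 0.27. PHLDA1 had the largest fall, -1.65 ± 0.05, from 359 ± 7.86 to 114 ± 1.07 CPM. EPHA4 had the largest rise, 1.03 ± 0.13, and the other 4 called genes CCND1, EPHA2, ETV4 and ETV5 had log2 fold changes of 0.35, 0.31, 0.27 and 0.30. All named genes of this list other than PHLDA1 and EPHA4 were chosen after their values were seen. The 3 that were not called, DUSP6, SPRY2 and SPRY4, lay between -0.23 and 0.21. With total counts as the only scaling, 4 were called higher and 3 lower. DUSP4 did not pass the filter. The plot of the pathway lists shows these genes beside each other.

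**Figure D5:**
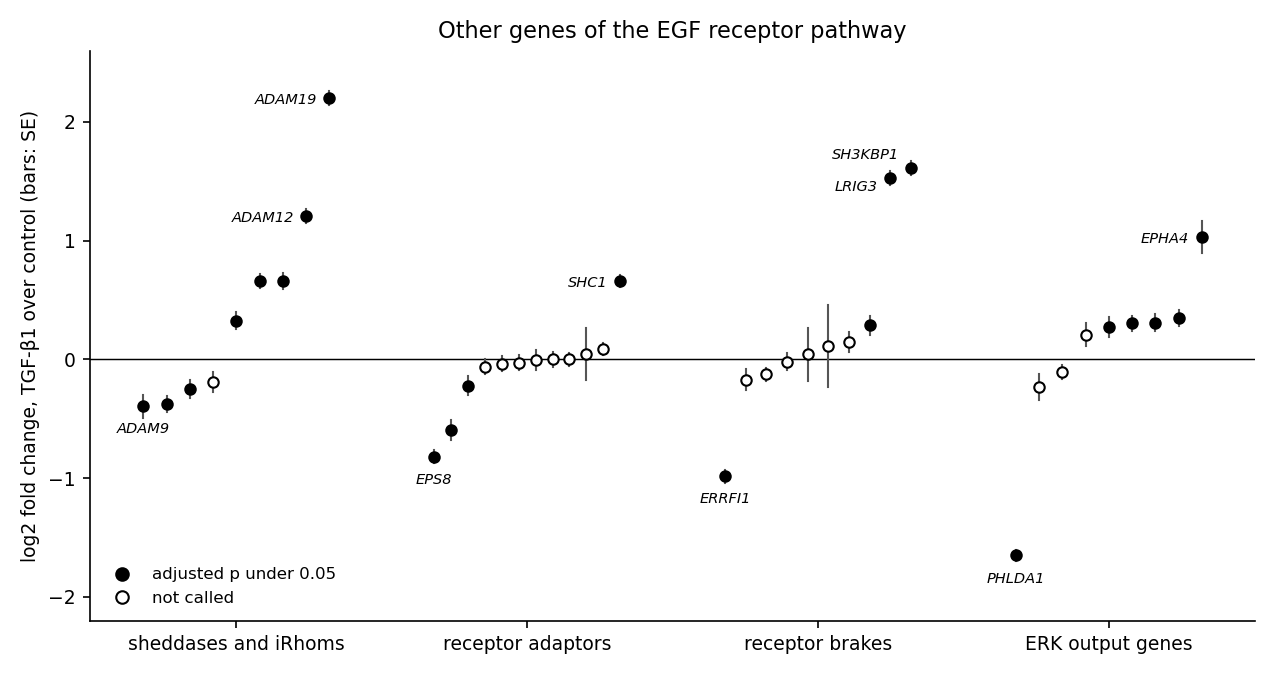
Log2 fold change (y axis, edgeR with SE) of the tested genes in 4 lists of the EGF receptor pathway, filled where the adjusted p was under 0.05, with the largest changes of each list named. Each list holds called genes on both sides of 0, from ADAM19 at 2.20 to PHLDA1 at -1.65.

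Genes whose level across the 6 libraries was most like that of EGFR were sought among 10590 genes whose mean was 5 CPM or more. LYST, CLMP and BACH1 had the highest Pearson r of log2 CPM with EGFR, at 0.9997, 0.999 and 0.999, and their log2 fold changes were -0.66, -0.26 and -0.36. As many as 579 genes had an r over 0.95 with EGFR. For HBEGF, the ligand with the highest mean TPM, the most alike were GPER1, LAP3 and NUP62, at 0.982, 0.982 and 0.976, and 25 genes had an r over 0.95. These r values are a description over 6 libraries that share 2 groups, and carry no p.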

How the data were processed

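Public count tables of 6 poly(A) RNA-seq libraries of HK-2 cells were analysed, 3 control and 3 TGF-β1, grouped by the treatment in their labels. Reads with adapters or of low quality were removed by the authors. The submitters' processing notes name CASAVA, featureCounts 2.0.1, DESeq2 1.16.1 and the build hg38. The aligner is not given in the sources used here. The deposited tables hold raw counts per gene, together with the TPM and FPKM that the authors derived from counts and gene length. Each table had 42095 entries, of which 598 carried no gene name. These unnamed loci, 0.396% to 0.464% of each library, entered neither library sizes nor tests. In each deposited file 7 records were broken over several lines and were rejoined.

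Counts of all named entries were filtered with filterByExpr at a minimum count of 10 and compared with the quasi-likelihood F test of edgeR 4.0.16 in R 4.3.3, two-sided, with TMM scaling and robust dispersion. Benjamini-Hochberg adjustment ran over all 14860 tested genes, and a gene was called at an adjusted p under 0.05. SE is the size of the log2 fold change divided by the square root of F. Depth was 21938622 to 26906067 counts per library, and exact binomial intervals at 95% cover counting error only. No replicate pair of a group agreed within sampling noise. On data simulated for this comparison over 14646 genes, the test recovered 71.4% of genes changed 2-fold and 98.0% of those changed 4-fold.

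Alternatives were DESeq2 1.42.0, limma-voom (limma 3.58.1), RLE size factors, total counts only, no filter, a mean of at least 50 counts, entries of a name summed, a fit with replicate number as a block, and fits that each left out 1 library. The members and lists were chosen with earlier results of these data known. Genes of the lists were named where they were the largest called rise or fall or changed at least 2-fold, and other names from the lists were chosen after their values were seen. Promoter sequence was used, and protein sequence was not used here. Promoters of NRG1 and ERBB3 were not used here, and 1 gene of the TGF-β target list is not reported here.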

Additional observations from a re-analysis of the deposited data

How the results depend on the processing

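The calls of the 10 members were the same in nearly all alternatives. In each of the alternatives that tested all 10 members except total counts only, 7 were called lower and 0 higher, and with total counts only 8 were called lower. ERBB2 was the added gene, at -0.16 (edgeR adjusted p 0.0360), and HBEGF changed sign without being called, at -0.020 (edgeR adjusted p 0.835). That scaling moved the median of all genes by -0.11 and gave 2134 genes higher and 4590 lower, in place of 3294 and 3288. In it 3 receptor brakes and 3 ERK output genes were called lower. Over the fits that left out 1 library, 1 to 2 receptor brakes, 2 to 3 receptor adaptors and 2 to 3 genes of the ligand release list were called lower. The members called lower numbered 7 in each of these fits. ERBB3 was not tested under the filter on a mean of at least 50 counts, which left 6 members called lower. No member fell under the main filter, so the planned comparison of scalings for such members was not run. In control, the rank of mean TPM changed for 4 members without control replicate 1 and for 2 without control replicate 3, all within overlapping neighbors, and it changed for 0 with FPKM. Replicate numbers were shared between groups, but the deviations of same-numbered libraries from their group means correlated at 0.111, -0.0117 and 0.0762, and control replicate 3 correlated best with TGF-β1 replicate 2, so the numbers were not taken as pairs. With the replicate block 3396 genes were called higher and 3394 lower, with the same 7 members, and the log2 fold change of EGFR was -0.32. Depth limits ERBB3, with 10 counts after TGF-β1 in all.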
